A study of Mus musculus and Homo sapiens with 9 samples.

Results

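The 10 genes described here write, remove or regulate DNA methylation: Tet1, Tet2, Tet3, Dnmt1, Dnmt3a, Dnmt3b, Uhrf1, Gadd45a, Gadd45b and Gadd45g. They were chosen by name, with earlier results of these data known, from 21887 mouse protein-coding genes on placed chromosomes. A gene was given a TDG peak where the peak's summit lay inside it or within 1 kb of either end, and a p53 peak where the summit lay inside it or within 10 kb. By this rule 7 of 3410 TDG peaks and 0 of 126 p53 peaks belonged to these genes.

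Both peak lists came from ChIP-seq of B16 cells, a mouse melanoma line, with an HA tag knocked in at Tdg (genotype Tdg HA knockin). The HA antibody (CST, 3724) located tagged thymine DNA glycosylase (TDG) in 1 library and the p53 antibody (CST, 2524) located p53 in the other. Each list stood for 1 library with no replicate, no treatment is named for these cells, and the labels do not say whether the knock-in line was 1 clone. The other 7 of 9 samples, which include HA ChIP of untagged (WT) cells, p53 ChIP of Trp53 KO cells, IgG and input, were not analysed here, so whether a peak depends on the tag or on p53 was not tested. A peak list holds no expression values, so the melanoma label was not checked against marker genes, and every value is given as the caller's value for that peak, with no error and no test.

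DNMT1 copies methylation to the new DNA strand after replication, guided by UHRF1, which binds hemimethylated CpG sites. DNMT3A and DNMT3B place new methylation. TET1, TET2 and TET3 oxidise methylcytosine in steps, and TDG cuts out the most oxidised forms, formylcytosine and carboxylcytosine, so that base excision repair can restore cytosine. GADD45A, GADD45B and GADD45G are small stress proteins that bind stress kinases and cell cycle proteins and have been reported to help recruit demethylation enzymes such as TDG to DNA. Gadd45a is also a textbook p53 target gene.

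TDG peaks were found at 4 of the 10 genes, 1 from each family: Tet3 with 3 peaks, Uhrf1 with 2, and Dnmt3a and Gadd45a with 1 each. No peak of either list met the rule at Tet1, Tet2, Dnmt1, Dnmt3b, Gadd45b or Gadd45g. The count of 4 of 10 stands beside a background of 14.8%, the share of all 21887 protein-coding genes that met the same rule (3237 genes). For summits within 1 kb of a gene end the count was 3 of 10 (Tet3, Uhrf1 and Gadd45a), beside 12.3% of all protein-coding genes. Among protein-coding genes of all lengths and chromosomes, 1.07% had 2 or more TDG summits by the rule, as Tet3 and Uhrf1 did. For 3 or more, as at Tet3, the share was 0.142% (31 genes). The shares with 2 or more and with 3 or more were not matched to gene length or chromosome. With 10 genes chosen by name, and earlier results of these data known, all these counts and shares are a description and were not tested.

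Promoter windows of 300 bases, 250 before to 50 after each start site listed by RefSeq (GRCm38.p6, the same coordinates as mm10), were matched for all 10 genes and gave 15 windows. TDG summits fell inside 4 windows, 1 of Gadd45a, 2 of Uhrf1 and 1 of Tet3. All 4 are shown first, 5′ to 3′ along the gene, with each CpG, the site of DNA methylation, in capitals and the start site at base 251. The window of Gadd45a is chr6:67037358-67037657 on the minus strand, with the TDG summit at base 205. The first window of Uhrf1 is chr17:56303087-56303386 on the plus strand, with the summit at base 183, and the second is chr17:56304063-56304362, with the summit at base 28. The window of Tet3 is chr6:83441629-83441928 on the minus strand, with the summit at base 52.
Gadd45a: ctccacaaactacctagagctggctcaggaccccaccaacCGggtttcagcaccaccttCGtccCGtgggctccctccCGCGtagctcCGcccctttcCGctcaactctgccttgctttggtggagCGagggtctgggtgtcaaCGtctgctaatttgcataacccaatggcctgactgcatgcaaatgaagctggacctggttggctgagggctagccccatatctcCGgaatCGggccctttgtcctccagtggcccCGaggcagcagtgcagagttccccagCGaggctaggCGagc
Uhrf1, first start: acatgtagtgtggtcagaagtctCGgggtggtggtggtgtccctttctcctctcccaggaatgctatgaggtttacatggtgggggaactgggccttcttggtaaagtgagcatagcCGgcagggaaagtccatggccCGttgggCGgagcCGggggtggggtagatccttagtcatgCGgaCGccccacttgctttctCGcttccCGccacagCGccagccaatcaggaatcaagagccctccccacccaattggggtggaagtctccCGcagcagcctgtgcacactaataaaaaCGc
Uhrf1, second start: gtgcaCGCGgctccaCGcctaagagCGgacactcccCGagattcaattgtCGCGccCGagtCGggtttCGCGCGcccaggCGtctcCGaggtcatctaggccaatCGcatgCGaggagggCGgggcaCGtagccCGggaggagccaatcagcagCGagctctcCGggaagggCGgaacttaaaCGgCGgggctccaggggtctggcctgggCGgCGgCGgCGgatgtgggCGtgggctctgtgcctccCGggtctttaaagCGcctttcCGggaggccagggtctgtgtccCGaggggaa
Tet3: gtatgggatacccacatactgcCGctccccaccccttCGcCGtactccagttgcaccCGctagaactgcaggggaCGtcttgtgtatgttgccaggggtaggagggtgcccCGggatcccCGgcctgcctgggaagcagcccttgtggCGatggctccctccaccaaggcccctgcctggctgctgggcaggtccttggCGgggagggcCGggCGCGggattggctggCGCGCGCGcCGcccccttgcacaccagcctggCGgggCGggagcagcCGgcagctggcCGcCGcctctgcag

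Of the 11 windows that held no TDG summit, 4 are shown: those of the other GADD45 genes, and those with the most and the fewest CpG sites of the 15, at Tet2 and at the Dnmt1 start at the 5′ end of that gene. The window of Gadd45b is chr10:80929841-80930140 on the plus strand. The window of Gadd45g is chr13:51846425-51846724 on the plus strand, and that of Tet2 is chr3:133544341-133544640 on the minus strand. The Dnmt1 window is chr9:20959839-20960138 on the minus strand.
Gadd45b: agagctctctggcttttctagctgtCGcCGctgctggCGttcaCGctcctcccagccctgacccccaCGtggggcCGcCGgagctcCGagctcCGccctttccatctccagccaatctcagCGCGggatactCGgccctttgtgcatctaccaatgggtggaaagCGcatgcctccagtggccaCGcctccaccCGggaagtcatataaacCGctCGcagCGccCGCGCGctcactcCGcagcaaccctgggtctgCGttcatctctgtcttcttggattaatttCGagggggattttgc
Gadd45g: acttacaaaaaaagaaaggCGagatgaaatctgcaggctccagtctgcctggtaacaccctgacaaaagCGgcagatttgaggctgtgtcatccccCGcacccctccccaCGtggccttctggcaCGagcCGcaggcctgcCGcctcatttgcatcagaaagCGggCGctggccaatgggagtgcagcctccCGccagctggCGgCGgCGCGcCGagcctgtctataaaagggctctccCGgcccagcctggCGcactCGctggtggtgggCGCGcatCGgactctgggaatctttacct
Tet2: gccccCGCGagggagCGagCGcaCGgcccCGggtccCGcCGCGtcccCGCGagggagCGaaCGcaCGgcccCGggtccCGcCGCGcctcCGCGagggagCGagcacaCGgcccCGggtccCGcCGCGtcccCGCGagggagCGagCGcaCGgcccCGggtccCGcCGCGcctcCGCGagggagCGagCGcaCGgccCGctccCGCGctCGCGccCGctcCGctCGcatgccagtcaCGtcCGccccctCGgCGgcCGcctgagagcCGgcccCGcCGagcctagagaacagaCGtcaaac
Dnmt1, start at the 5′ end: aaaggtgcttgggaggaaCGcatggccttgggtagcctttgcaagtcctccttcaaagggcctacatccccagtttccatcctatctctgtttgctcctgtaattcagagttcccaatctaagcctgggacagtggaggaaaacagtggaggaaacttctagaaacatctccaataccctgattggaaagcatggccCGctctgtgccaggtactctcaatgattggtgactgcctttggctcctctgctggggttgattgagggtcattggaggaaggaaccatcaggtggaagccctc

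Tet3 had the most TDG peaks of the 10 genes. Tet3 (chromosome 6, 83362373 to 83457208, minus strand) encodes a methylcytosine dioxygenase. Its first peak (83441366 to 83441952) was 5.77-fold over local background at a −log10 q of 9.37, and its summit lay 199 bases upstream of the start site that RefSeq lists for the promoter window. The same summit lay 122 bases inside the noncoding gene B230319C09Rik, which runs the other way on the plus strand. Tet3's second peak (83443379 to 83443701) was 7.09-fold (−log10 q 11.7), 1671 bases further upstream and also inside B230319C09Rik. The last peak (83456704 to 83457072) was 7.03-fold (−log10 q 11.5), and its summit lay 356 bases inside the upper end of Tet3, the 5′ end of the gene as annotated. That end lies 15530 bases upstream of the listed start, so all 3 peaks sat in the 5′ part of the gene, and the summit furthest into it was still 79504 bases from the 3′ end.

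Tet1 and Tet2, which encode the sister dioxygenases, had no TDG peak. The TDG summit nearest to Tet1 (chromosome 10, 62804570 to 62887469) was 137 kb away, inside Pbld2, and reached 3.31-fold. The one nearest to Tet2 (chromosome 3, 133463677 to 133545136) was 1900 kb away, 78 bases from the end of Papss1, and reached 6.51-fold. Across the 18650 protein-coding genes with no TDG peak by the rule the median distance to the nearest summit was 273 kb, with quartiles of 69.8 and 1080 kb. Tet1 therefore lay within those quartiles and Tet2 beyond the upper one.

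Among the methyltransferase genes only Dnmt3a had a TDG peak, and it lay deep in the gene. Dnmt3a (chromosome 12, 3801559 to 3914443, plus strand) encodes a de novo methyltransferase. Its peak (3855817 to 3856273) was 5.99-fold (−log10 q 8.19). The summit was 54417 bases from the lower end and 35768 bases upstream of the last of the 3 start sites that RefSeq lists, and it was in no other annotated gene. None of the 3 Dnmt3a promoter windows was touched by a TDG peak.

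Dnmt1, the maintenance methyltransferase gene (chromosome 9, 20907206 to 20959888), came closest to the rule without meeting it. The nearest TDG peak was 13.1 kb away in S1pr2 and reached 5.47-fold. Dnmt3b, the other de novo methyltransferase gene (chromosome 2, 153649411 to 153687730), had its nearest TDG summit 223 kb away, inside Nol4l, at 6.68-fold.

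Uhrf1, whose product brings DNMT1 to hemimethylated CpG sites, carried 2 TDG peaks at its 5′ end (chromosome 17, gene 56303337 to 56323486, plus strand). One peak (56302478 to 56303546) was the widest of the 7, at 1069 bases against a median of 420 for all TDG peaks, and was 5.19-fold (−log10 q 7.87). Its summit lay 68 bases upstream of the first listed start. The next peak (56303908 to 56304500) began after a gap of 361 bases and was 3.84-fold (−log10 q 5.29), the lowest of the 7 on both scales. Its summit was 753 bases inside the gene and 223 bases upstream of the second listed start. A further TDG peak of 4.53-fold lay 2480 bases beyond the 3′ end of Uhrf1, outside the 1 kb limit. That summit was 4 bases from the lower end of Kdm4b, which encodes a histone demethylase.

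Gadd45a had a single TDG peak at its start. In Gadd45a (chromosome 6, 67035096 to 67037407, minus strand) the peak (67037161 to 67037702) was 6.67-fold, and its −log10 q of 14.0 was the highest of the 7. Its summit lay 46 bases upstream of the start site. The noncoding gene E230016M11Rik starts inside Gadd45a on the opposite strand, and the summit fell 854 bases inside it.

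Gadd45b and Gadd45g, the paralogues of Gadd45a, had no TDG peak. The nearest summit was 29.3 kb from Gadd45b (chromosome 10, 80930091 to 80932204), in Timm13 at 4.87-fold, and 195 kb from Gadd45g (chromosome 13, 51846675 to 51848475), in Secisbp2 at 5.73-fold. The 3 genes are of similar length, 2.31 kb for Gadd45a, 2.11 kb for Gadd45b and 1.80 kb for Gadd45g. The rule was met by 8.53% of the 422 protein-coding genes in that length range. The 7 longer members, from Uhrf1 at 20.1 kb to Dnmt3a at 113 kb, stand beside 19.2% of the 7921 protein-coding genes in their range.

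**Figure D1:**
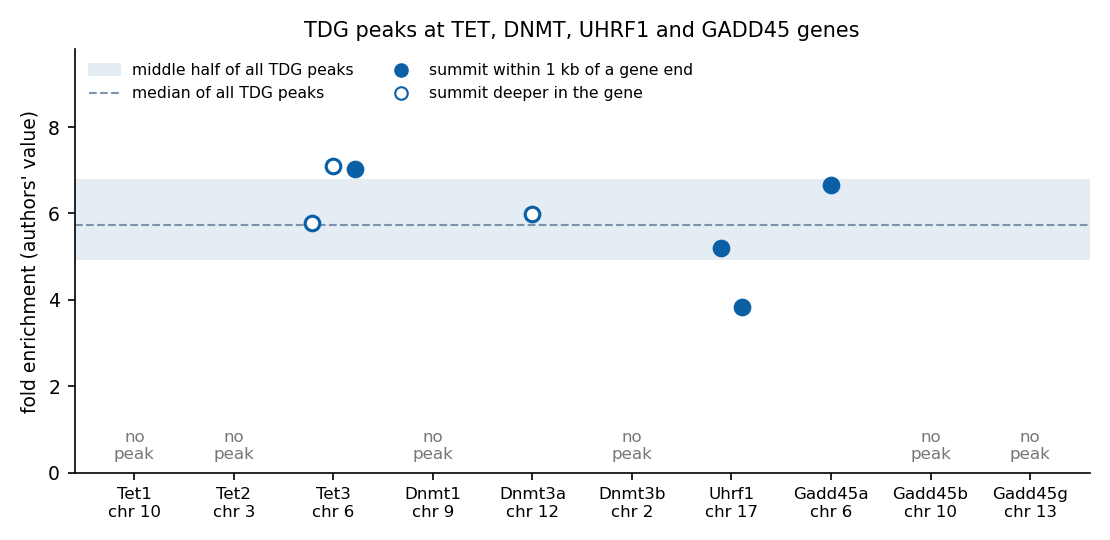
Fold enrichment (authors' value, linear axis from 0) of each TDG peak at the 10 genes, with 1 point per peak in order of coordinate, filled where the summit lay within 1 kb of a gene end. The 7 points run from 3.84 for Uhrf1 to 7.09 for Tet3, around the list median of 5.74, and 6 genes have no peak.

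**Figure D2:**
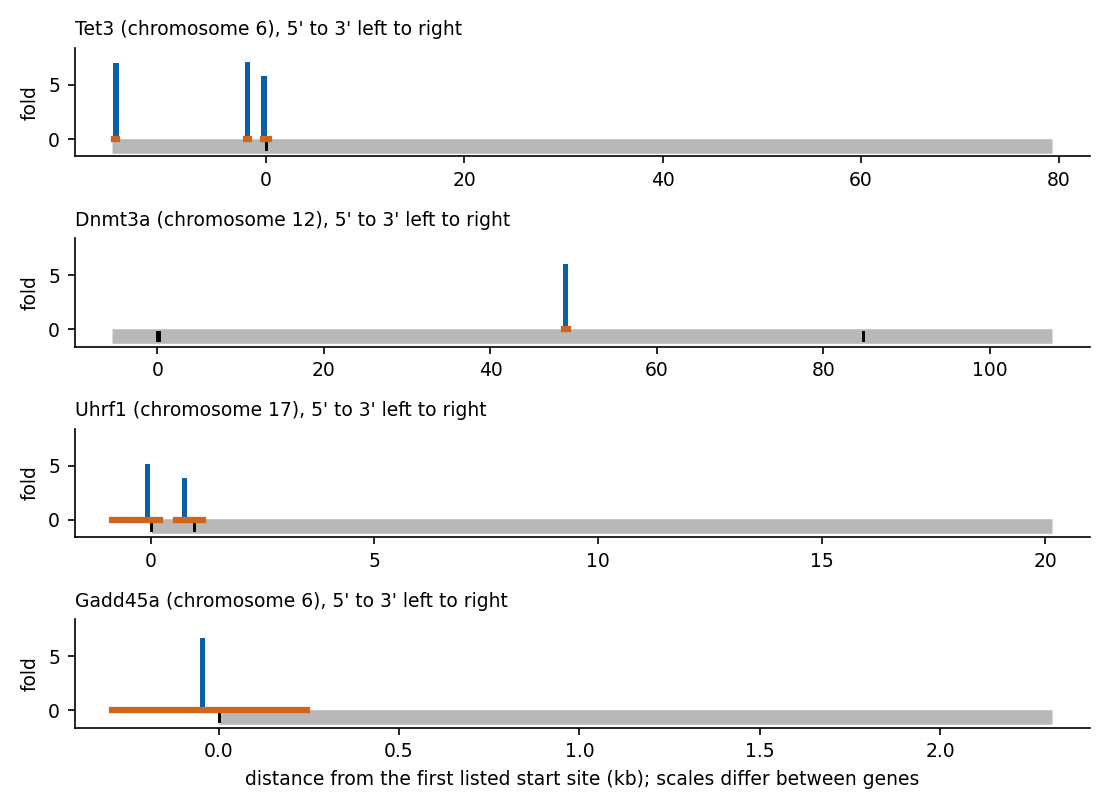
Position of the TDG peaks along the 4 genes that had one, as distance from the first listed start site in kb, with the gene in grey, listed starts as black ticks, peak extents in orange and a blue bar from 0 to the fold at each summit. The summits of Gadd45a and Uhrf1 lie 46, 68 and 223 bases upstream of a listed start, those of Tet3 between 199 and 15174 bases upstream, and the Dnmt3a summit 35768 bases upstream of the last one.

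In strength these peaks were ordinary for the list. The 7 member peaks had a median fold of 5.99 with a range of 3.84 to 7.09, against 5.73 for the 3403 peaks elsewhere, whose quartiles were 4.95 and 6.77. By fold, the second and last Tet3 peaks ranked 643 and 656 of 3410, Gadd45a 956, Dnmt3a 1429, the first Tet3 peak 1687, and the Uhrf1 peaks 2421 and 3296. The TDG peak with the highest fold in the list reached 28.9-fold and was at Tdg, the gene that carries the HA knock-in. What part the knock-in had in that peak was not tested.

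The reads behind the peaks were recovered from the fold and p value of each peak. Summit reads were 28, 28 and 26 at Tet3, 22 at Dnmt3a, 27 and 28 at Uhrf1 and 35 at Gadd45a, beside a median of 24 and quartiles of 20 and 28 for all TDG peaks. Local background, the number of reads the caller expected at the summit from the control, was 3.65, 2.79 and 2.56 at the 3 Tet3 peaks, 2.56 at Dnmt3a, 4.0 and 6.0 at Uhrf1 and 4.0 at Gadd45a. The value of 2.56 at Tet3 and Dnmt3a was the commonest in the list, shared by 1818 of 3410 peaks, and is taken as the genome-wide level rather than one local to those sites. The second Uhrf1 peak thus had as many summit reads as the first Tet3 peak and a lower fold over a higher background.

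The genes with TDG peaks lay on chromosomes where TDG peaks were common. Tet3 and Gadd45a are both on chromosome 6, where 30.9% of 1126 protein-coding genes met the rule. Dnmt3a is on chromosome 12 (28.7%) and Uhrf1 on chromosome 17 (19.1%). The 6 genes with no TDG peak lay on chromosomes with lower shares: 14.9% on chromosome 9 (Dnmt1), 13.3% on chromosome 10 (Tet1 and Gadd45b), 12.5% on chromosome 2 (Dnmt3b), 10.9% on chromosome 3 (Tet2) and 9.77% on chromosome 13 (Gadd45g). Off chromosome 6, TDG peaks were found at 2 of 8 members, beside 13.9% of protein-coding genes there. What part the chromosome had in these counts was not tested.

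**Figure D3:**
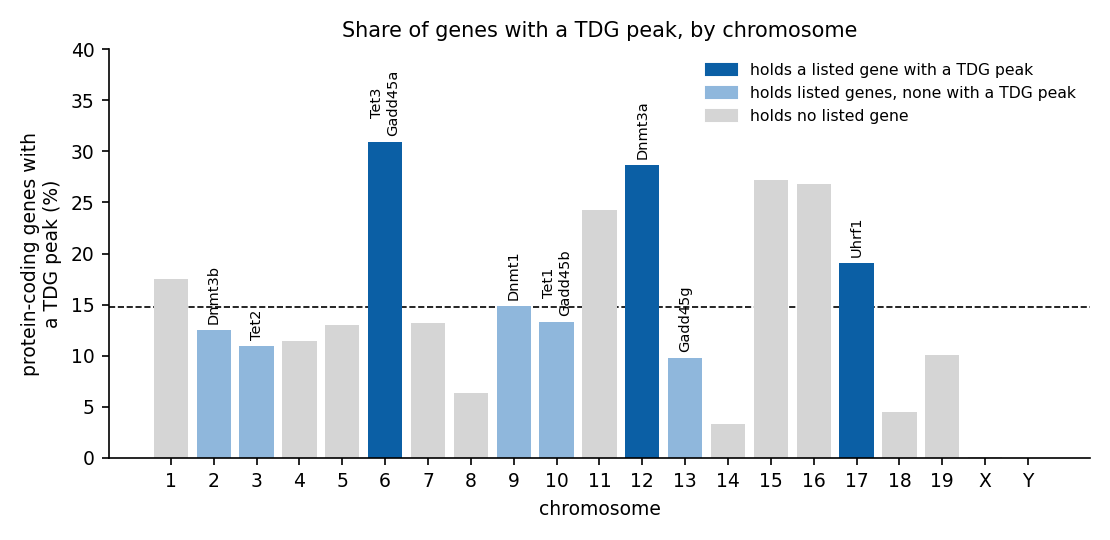
Share of protein-coding genes with a TDG peak inside them or within 1 kb of an end (percent, linear axis from 0) for each chromosome, with the 10 genes written above their chromosomes and the share over all chromosomes, 14.8%, as a dashed line. Every gene with a TDG peak lies on chromosome 6, 12 or 17, at 30.9%, 28.7% and 19.1%, and the other genes lie on chromosomes at 9.77 to 14.9%.

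CpG content differed among the promoter windows without separating those with a TDG peak. The 4 windows that held a TDG summit had 12 and 33 CpG sites (Uhrf1), 14 (Gadd45a) and 22 (Tet3), and the 11 others ran from 2 at one Dnmt1 start to 57 at Tet2. These ranges overlapped. A summit fell in 4 of 15 member windows, beside 7.22% of 21263 windows of protein-coding genes, whose median was 13 CpG sites with quartiles of 4 and 24.

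A window was called CpG-rich where its G and C content was at least 50% and its CpG count was at least 0.6 of that expected from its bases. Of the 8 members with a CpG-rich window, Dnmt3a and Uhrf1 had a TDG peak, beside 26.5% of the 8452 protein-coding genes of that kind. The remaining 2 members, Tet3 and Gadd45a, both had one, beside 5.37% of genes whose windows were not CpG-rich, and 12.5% of such genes on chromosome 6, where both lie. Tet3 missed the limit narrowly, with a ratio of 0.576, and Gadd45a had 0.508. This split turned on the window. In the 150 bases nearest to the start Tet3 counted as CpG-rich and Tet1 did not, so a TDG peak was found at 3 of 8 CpG-rich members, beside 24.9% of such genes, and at 1 of 2 others (Gadd45a), beside 5.14%. CpG-rich genes on chromosome 6 met the rule in 55.4% of cases by the full window.

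The Tet2 window was the densest of the 15, with more CpG sites than 99.8% of the windows of protein-coding genes. Of the 38 windows with at least as many, 1 was overlapped by a TDG peak. The printed Tet2 sequence also repeats itself, since 67.8% of its bases were the same as the base 42 positions further on, against 32.4 to 47.9% at the best shift of any other member window. How well reads map to it was not tested.

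**Figure D4:**
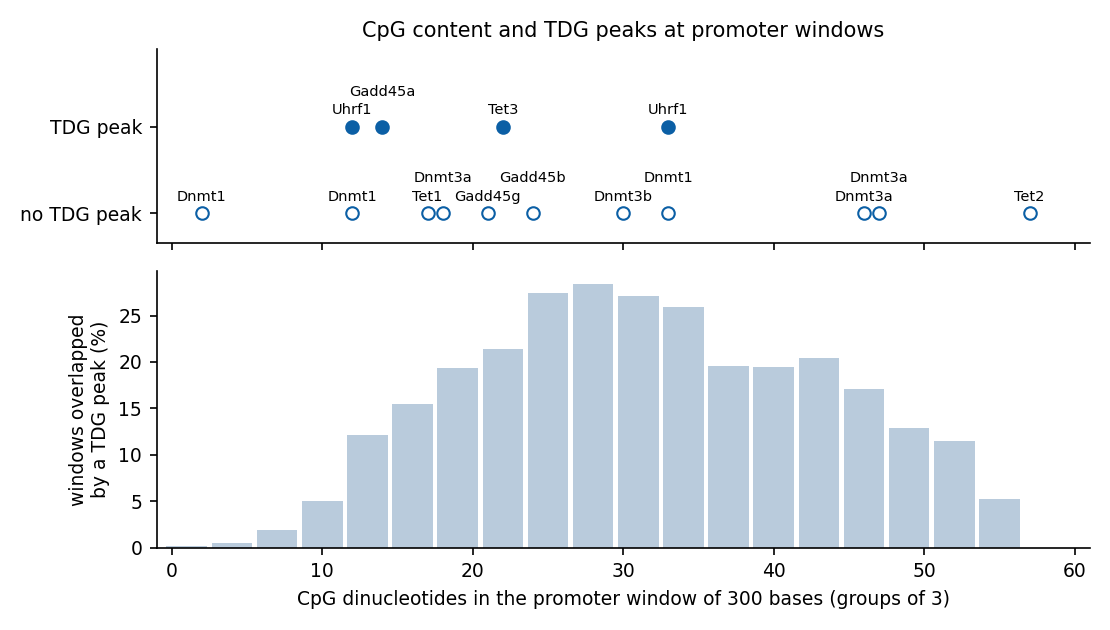
Above, CpG sites in each of the 15 promoter windows of the 10 genes, with windows overlapped by a TDG peak in the upper row; below, the percent of all promoter windows of protein-coding genes overlapped by a TDG peak, in groups of 3 CpG sites. The windows with a peak hold 12, 14, 22 and 33 CpG sites, and the overall share is highest, at 28.4%, in the group that starts at 27.

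Letters of known promoter elements were searched on both strands of the windows, as a description. The octamer ATTTGCAT occurred at 2 places in the Gadd45a window, 97 and 70 bases upstream of the start, with a CCAAT box (CCAAT) between them. Octamer and CCAAT elements are known from the human GADD45A promoter. Gadd45g had 1 octamer and Gadd45b none, so 2 of the 15 member windows held it, beside 1.66% of all windows. The letters TTTNNCGC, a loose form of the E2F motif with any base at N, occurred in the windows of Uhrf1 and Dnmt1 alone among the 10 genes. That was 3 of the 15 member windows, beside 6.24% of all windows. Binding of E2F factors there was not tested. Matches of CCAAT were in 8 of the 15 member windows (6 genes) and 38.2% of all windows, and the GC box GGGCGG was in 12 of the 15 (9 genes) and 46.2% of all. The E-box CACGTG occurred in 3 of the 15, in Dnmt3a, Gadd45b and Gadd45g (7.84% of all windows), and the cAMP response element TGACGTCA in no member window (2.23% of windows). The octamer, CCAAT, GC box, E2F and E-box letters each occurred in genes with a TDG peak and in genes without one.

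No p53 peak lay within 10 kb of any of the 10 genes, and 0.489% of protein-coding genes (107) had one. For Gadd45a the nearest p53 summit was 19.3 Mb away. The shortest distances were 1.22 Mb for Tet1 and 1.25 Mb for Gadd45b, and the remaining ones ran from 16.5 Mb for Uhrf1 to 51.9 Mb for Gadd45g. Of the 21780 protein-coding genes with no p53 peak by the rule, 19196 had one elsewhere on their chromosome, at a median distance of 5.84 Mb with quartiles of 1.94 and 15.9 Mb. The lowest −log10 q in the p53 list was 3.74, so weaker sites than that are not part of it, and the absence of a peak says nothing about weaker binding. The p53 consensus half-site, matched by name, occurred in 1 of the 15 member windows, that of Gadd45a, beside 7.37% of all windows. Sequence outside the promoter windows was not searched.

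The genes that work with these 10 were read from 6 lists of 87 genes in all. TDG peaks were found at 24 of the 87, beside 14.8% of all protein-coding genes and 26.5% of those with a CpG-rich promoter window. What part promoter class had in this count was not tested. Within 1 kb of a gene end the count was 19 of 87, beside 12.3% of all protein-coding genes and 22.5% of those with a CpG-rich promoter window. Chromosome 6 held 9 of the 87, of which 5 had a TDG peak, beside 30.9% of protein-coding genes on that chromosome. Off chromosome 6 the count was 19 of 78, beside 13.9%. Of the list genes named here and below, Mbd4, Ogg1, Hmces and Ahcyl2 are on chromosome 6. What part the chromosome had in the list counts was not tested. Among methylation readers and partners 4 of 20 had one: Uhrf2, the paralogue of Uhrf1 (8.85-fold), Mbd5 (8.59-fold), Mbd3, a subunit of the NuRD complex (7.81-fold), and Mbd6 (4.95-fold). In base excision repair 3 of 18 had one: the knock-in gene Tdg, the thymine glycosylase Mbd4 (6.18-fold) and Ogg1, which removes oxidised guanine (5.93-fold).

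Beside 14.8% of all protein-coding genes, cofactors and modulators of TET had TDG peaks at 4 of 14 genes. They were D2hgdh (7.29-fold), whose enzyme breaks down a hydroxyglutarate that inhibits TET enzymes, Hmces (5.75-fold), whose product binds abasic sites in single-stranded DNA, Dcaf1 (5.47-fold), a ubiquitin ligase subunit that acts on TET proteins, and Idh1 (5.00-fold), which makes the TET cosubstrate oxoglutarate. Hmces alone of these had its peak within 1 kb of a gene end, 1 of 14 beside 12.3% of all protein-coding genes. The peaks of D2hgdh, Dcaf1 and Idh1 lay deeper in the genes. The methyl donor cycle had TDG peaks at 6 of 15 genes, 5 of them at a gene end, beside the same shares. Highest were the folate enzyme gene Mthfd1 (6.93-fold), Mat2b (5.73-fold), Ahcy (5.16-fold) and Ahcyl2 (5.01-fold). Mat2b encodes a subunit of methionine adenosyltransferase, and Ahcy the enzyme that clears S-adenosylhomocysteine.

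Of all protein-coding genes 14.8% met the TDG rule, and 12.3% met it at a gene end. GADD45 partners and stress kinases had TDG peaks at 7 of 15 genes, 6 of them at a gene end. The highest were Mapk14 (8.01-fold), which encodes p38 alpha, Cdkn1a (7.23-fold), the cell cycle inhibitor p21, Map2k3 (6.85-fold), a kinase upstream of p38, and Ercc5 (6.63-fold), the XPG nuclease. Cdkn1a was the 1 gene of the 87 with a p53 peak within 10 kb, beside 0.489% of all protein-coding genes. Its 2 p53 peaks were 32.5-fold and 12.6-fold. None of the 5 cytidine deaminase genes had a peak of either kind, beside 14.8% (TDG) and 0.489% (p53) of all protein-coding genes. The lists were chosen with earlier results of these data known, and these counts are a description.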

How the data were processed

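Both analysed libraries were ChIP-seq of B16 cells with an HA knock-in at Tdg. Per the submitters' processing notes, the tools were MACS2, Bowtie2, ChIPseeker, deepTools, Picard and Trim Galore, on mm10, without versions or roles. The authors deposited narrowPeak lists: positions, a score, the fold enrichment (a ratio at the summit over local background), and −log10 p and −log10 q values. No source used here gives the control library or the calling threshold.

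Genes and promoter windows came from RefSeq tables of GRCm38.p6, and all 87 list names matched; 1 further gene is not reported here. The deposited lists give no depth. Summit reads and local background were solved from the deposited fold, taken as (reads + 1) over (background + 1) after scaling the ChIP reads by 0.924, and the Poisson p. The scale was chosen to make summit counts whole, and where several solutions existed the one nearest to a whole count was taken. Summits then came out whole, within 0.05 reads, for 99.97% of TDG peaks, so this share describes the fit and is not a separate check. The method was tested on simulated data. Precision is limited by the summit reads.

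There was 1 library per list, so no test was run. The members and lists were chosen with earlier results of these data known. Every member, up to 4 genes per list by fold, and genes with p53 peaks are named. Python 3.11.15, pandas 2.3.3, numpy 2.4.6, scipy 1.17.1 and matplotlib 3.10.9 were used.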

Additional observations from a re-analysis of the deposited data

How the results depend on the processing

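The 4 genes with a TDG peak (Tet3, Dnmt3a, Uhrf1 and Gadd45a) were the same with a 3 kb or 500 base window, with any base of the peak in place of the summit, and with a −log10 q of at least 5. In that order, 15.8, 14.3, 14.9 and 13.2% of all protein-coding genes had a TDG peak under these settings. Counting gene ends alone left 3, without Dnmt3a, beside 12.3% of all protein-coding genes. Keeping peaks at or above the median fold left 3, without Uhrf1, beside 7.96%. The list genes with a TDG peak numbered 24 of 87, beside 14.8% of all protein-coding genes. They numbered 24 with the 3 kb window (15.8%), 19 at gene ends alone (12.3%) and 23 at a −log10 q of at least 5 (13.2%). The 10 genes also had no p53 peak with a 50 kb window, a 1 kb window or any base of the peak. The shares of all protein-coding genes under these settings were 1.25, 0.292 and 0.489%. The 1 kb window lies within the 10 kb one and could add no peak. The other settings could add none either, since the p53 summit nearest to any of the 10 genes was 1.22 Mb away. The median place of the 7 peaks in the TDG list was 41.9% from the top by fold and 39.9% by −log10 q. CpG-rich windows were found for 8 members in the full window and for 8 in the 150 bases nearest to the start, where Tet3 came in and Tet1 dropped out, so that 3 of 8 CpG-rich members had a TDG peak, against 2 of 8 by the full window. The share of genes with a TDG peak was 14.8% for protein-coding genes, 16.6% for those in the length range of the 10 members and 7.79% for all annotated genes. The shares by promoter class (either window) and off chromosome 6 were added after seeing the data. No paired analysis was possible because each group had 1 library. Depth limits the lists to sites past the caller's threshold.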
